A study of Mus musculus with 24 samples.

Results

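The brown fat effector genes followed here were *Ucp1*, *Cidea*, *Cox8b*, *Cox7a1*, *Elovl3*, *Dio2* and *Kcnk3*. They were named from general knowledge of brown fat and looked up by symbol, and all 7 were found among the 24825 genes of each library. RNA-seq was done on ingSVF cells, the stromal vascular fraction of inguinal white fat of the mouse, a preparation that holds adipocyte precursors, after immortalisation with SV40 large T antigen. In all of them loxP sites flanked exon 2 of *Nfia*. The ctrl cells carried an empty retroviral vector, and the Cre cells expressed Cre recombinase. The Cre + NFIA cells expressed full-length NFIA with a FLAG tag beside Cre. In the Cre + NFIA Δpro#3 cells the tagged NFIA lacked pro#3, a segment of the C-terminal proline rich domain. Each of these 4 cell types was collected at day 0 and day 7 in 3 replicates, which gave 8 groups and 24 libraries. Every day 7 group had received the same thermogenic medium, first with isobutylmethylxanthine, indomethacin and dexamethasone, and throughout with rosiglitazone, insulin and the thyroid hormone T3. The labels name no forskolin or other acute stimulus of cyclic AMP, and they do not say whether the replicates came from separate cultures, so that p-values measure the spread between these libraries, which may be technical.

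Brown and beige adipocytes burn fuel to make heat. UCP1 lets protons cross the inner mitochondrial membrane without making ATP, the respiratory chain, in which cytochrome c oxidase is the last complex, pumps those protons, and lipid droplets and fatty acid enzymes supply the fuel. Thyroid hormone and cyclic AMP raise the program, and PPARγ, the receptor that rosiglitazone activates, is needed for any adipocyte to form. NFIA is a DNA-binding factor that is known to act with PPARγ at brown fat genes.

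The deposited unit was FPKM, which counts fragments for each kilobase of a gene and for each 1000000 fragments of the library. Each value was a whole multiple of the value of 1 read, so reads were recovered, with 7.73 to 14.62 M (M, 1000000) reads per library. The smallest level taken as shown was 3 reads per library, a limit that covers counting error only. *Nfia* was 9.55 ± 0.355 FPKM (SD, n = 3) in ctrl and 10.1 ± 0.588 in Cre at day 7. This value covers all exons, most of them outside the deleted exon 2, and so does not check the deletion. The authors checked it in Cre-expressing cells by PCR of genomic DNA. They also reported a nearly complete loss of NFIA by RT-qPCR and western blot. In the libraries labelled Cre + NFIA and Cre + NFIA Δpro#3 it was 90.0 ± 6.68 and 102 ± 8.44 FPKM, above Cre by 3.04 and 3.21 on the log2 scale with adjusted p = 1.44e-10 and 2.98e-10. Among 5 markers of adipocyte precursors, the summed level was 2010 to 2330 FPKM in the day 0 libraries.

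Before differentiation the members were at a few reads at most, except *Cox7a1*, and at day 7 they showed 3 patterns. *Cox8b* and *Cox7a1*, both subunits of cytochrome c oxidase, were highest in Cre + NFIA, intermediate in ctrl and low in both Cre and Cre + NFIA Δpro#3. *Elovl3* and *Kcnk3* were on average highest in ctrl, followed by Cre + NFIA, then Cre, and lowest in Cre + NFIA Δpro#3. For *Kcnk3* the ctrl and Cre + NFIA libraries overlapped. *Ucp1* held 9 to 36 reads in the ctrl and Cre + NFIA libraries and at most 5 in the others. *Cidea* held more than 3 reads in all 3 Cre + NFIA libraries and in 1 ctrl library, and *Dio2* was not detectable at this depth in any library.

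**Figure D1:**
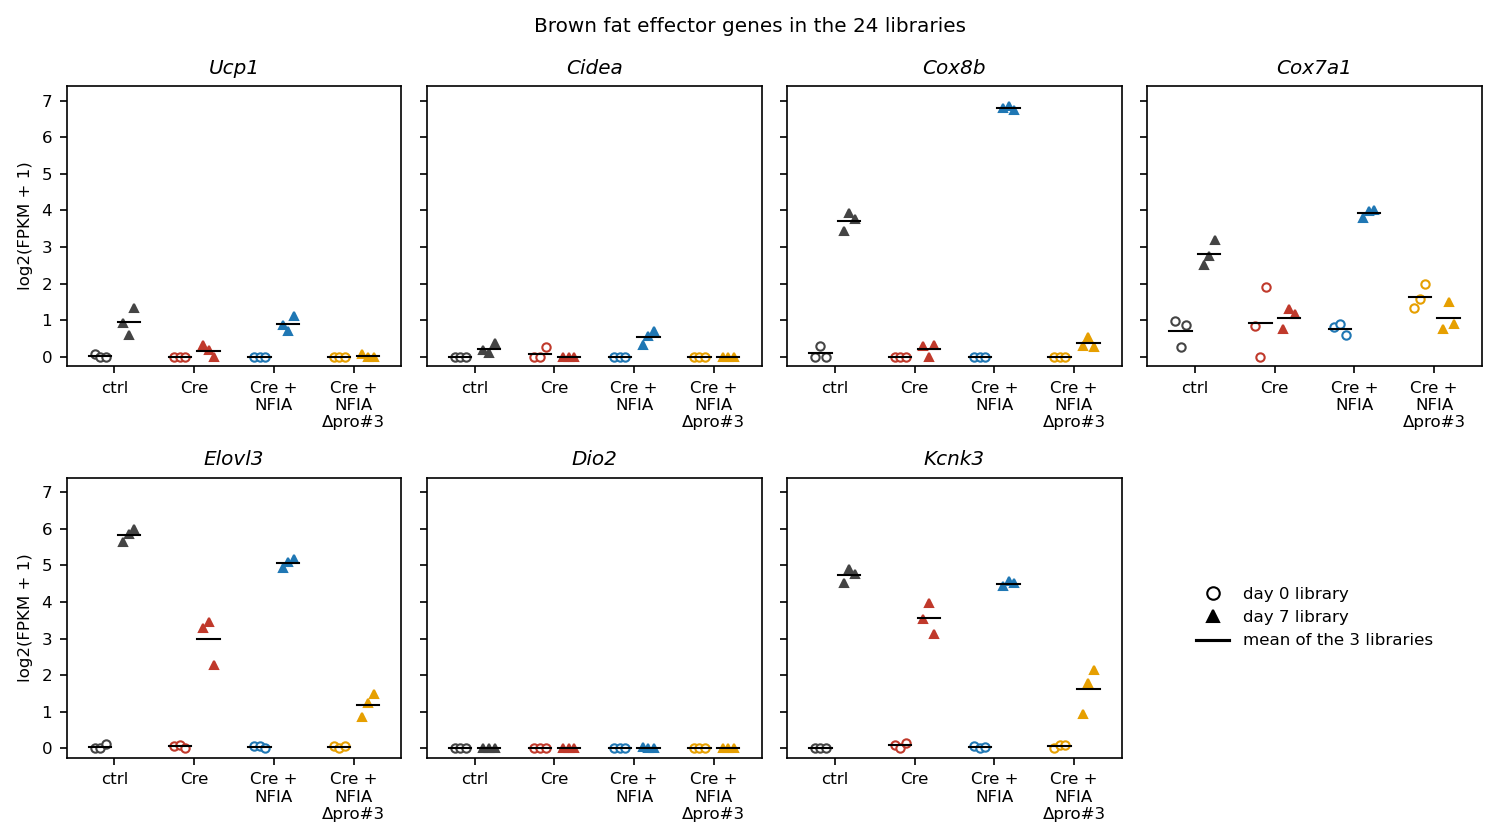
log2(FPKM + 1) of each member in each library, for the 4 cell types at day 0 (open circles) and day 7 (filled triangles), with a bar at the mean of the 3 libraries. At day 7 the *Cox8b* libraries of Cre + NFIA stand far above those of ctrl, while for *Elovl3* ctrl is highest, and *Dio2* lies at the bottom of the scale throughout.

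For the tests a gene had to reach 1 FPKM in at least 3 libraries, which 12640 genes did, *Cox8b*, *Cox7a1*, *Elovl3* and *Kcnk3* among them. *Ucp1*, *Cidea* and *Dio2* did not reach it and are given as reads. The 4 tested members passed mainly through the day 7 groups in which they were high, so that a count of calls among them is a description and not support. Changes are on the scale log2(FPKM + 1), which understates the change of low genes. A gene was called where limma gave a Benjamini-Hochberg adjusted p under 0.05 over all tested genes and the change on that scale reached 3-fold, and "rose" and "fell" are used of called genes only.

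*Cox8b* encodes the subunit VIII isoform of cytochrome c oxidase that heart, skeletal muscle and brown fat use. The gene lies on the minus strand of chromosome 7 at 148084842 to 148086345 in NCBIM37 (mm9), with 2 exons. *Cox7a1* encodes the isoform of subunit VIIa of the same tissues and lies on the plus strand of the same chromosome at 30969190 to 30971047, with 4 exons. No annotated gene overlaps either. At day 7 both members were highest in Cre + NFIA, followed by ctrl. The 250 bases before their RefSeq transcript starts are therefore printed here, 5′ to 3′ on the gene's strand. They come from GRCm38.p6, a later build than that of the files. Capitals mark matches on either strand to TTGGC, the core bases that NFI factors bind, or to AGGTCA, the hexamer of the nuclear receptors to which PPARγ belongs. The windows are chr7:140900447-140900696 for *Cox8b* and chr7:30183921-30184170 for *Cox7a1*.
Cox8b: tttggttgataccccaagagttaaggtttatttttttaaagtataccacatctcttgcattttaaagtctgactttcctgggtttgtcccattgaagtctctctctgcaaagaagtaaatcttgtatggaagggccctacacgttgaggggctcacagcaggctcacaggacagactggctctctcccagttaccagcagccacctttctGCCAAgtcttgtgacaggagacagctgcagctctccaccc
Cox7a1: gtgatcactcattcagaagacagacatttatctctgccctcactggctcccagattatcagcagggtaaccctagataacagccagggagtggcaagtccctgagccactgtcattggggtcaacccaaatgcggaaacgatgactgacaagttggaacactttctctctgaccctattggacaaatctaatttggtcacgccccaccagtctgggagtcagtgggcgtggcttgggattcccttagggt

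*Cox8b* held 1 match to the NFI core, in its reverse complement, which starts 40 bases before the transcript start. *Cox7a1* held none, and neither window held AGGTCA. The NFI core occurred in 41.5% of 32851 RefSeq promoter windows of the same length and AGGTCA in 14%, so that a match is common. The full NFI site, TTGGC and its reverse complement separated by 5 bases of any kind, occurred in 0.0365% of windows and the direct repeat of AGGTCA with 1 base between in 0.0335%, and neither was found in these genes. The windows of the broadly expressed isoforms *Cox8a* and *Cox7a2* held 2 and 1 NFI cores, that of *Ucp1* held 2 and 1 match to AGGTCA, and that of *Dio2* held 1 NFI core. Entries were found for 4 members, and none for *Cidea*, *Elovl3* or *Kcnk3*.

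The 3 ctrl libraries of day 7 held *Cox8b* at 9.87, 14.4 and 12.7 FPKM, and those of Cre + NFIA at 110, 115 and 107 FPKM. In Cre the libraries held 1, 0 and 1 reads of it, and in Cre + NFIA Δpro#3 they held 1, 2 and 1. The Cre + NFIA libraries lay above every ctrl library, every ctrl library lay above the rest, and Cre and Cre + NFIA Δpro#3 overlapped near the limit of detection. At day 0 a single read was found among all 12 libraries, in ctrl.

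*Cox8b* fell by 3.52 on the log2 scale in Cre against ctrl (SE 0.129, adjusted p = 5.44e-08). From the summed reads, 164 in ctrl and 2 in Cre, it was 71.6-fold lower in Cre, with an exact 95% interval of 19.5 to 596 for counting error. It rose by 6.59 in Cre + NFIA against Cre (SE 0.129, adjusted p = 6.56e-11), which from 1623 and 2 reads was 645-fold with an interval of 178 to 5330. The level with full-length NFIA also exceeded that of ctrl, where *Cox8b* rose by 3.08 (SE 0.129, adjusted p = 5.87e-08), or 9.01-fold by reads with an interval of 7.67 to 10.6. Between Cre + NFIA Δpro#3 and Cre the log2 difference was 0.17 (SE 0.129, adjusted p = 0.414). With 4 and 2 reads in these groups the ratio was 1.77 with an interval of 0.253 to 19.5, so that a difference was not detectable at this depth.

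*Cox7a1* was also highest in Cre + NFIA, followed by ctrl. At day 7 it was 4.67, 5.73 and 8.13 FPKM in ctrl, 0.683, 1.49 and 1.24 in Cre, 13.0, 14.7 and 15.3 in Cre + NFIA, and 0.702, 1.81 and 0.861 in Cre + NFIA Δpro#3. All Cre + NFIA libraries exceeded all ctrl libraries, and Cre and Cre + NFIA Δpro#3 overlapped. The transcript is short, 366 bases in the files, so that these levels rest on 13 reads in Cre, 15 in Cre + NFIA Δpro#3, 85 in ctrl and 213 in Cre + NFIA.

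*Cox7a1* fell by 1.74 in Cre against ctrl (SE 0.214, adjusted p = 2.9e-05) and rose by 2.86 in Cre + NFIA against Cre (SE 0.214, adjusted p = 3.67e-07). Against ctrl it differed by 1.12 in Cre + NFIA (SE 0.214, adjusted p = 0.00409), below the 3-fold threshold. Cre + NFIA Δpro#3 and Cre differed by -0.03 (SE 0.214, adjusted p = 0.954), with a ratio of summed reads of 1.02 and an interval of 0.452 to 2.33. The fall in Cre rests on the fold threshold, which was no longer reached without ctrl replicate 3, with -1.55, or without Cre replicate 1, with -1.58. *Cox7a1* was also the member with a signal before differentiation, at up to 3.00 FPKM, with 2.18 ± 0.746 FPKM in Cre + NFIA Δpro#3 and 0.675 ± 0.400 in ctrl at day 0.

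Both subunits have an isoform that most tissues use, and these gave a scale for the level of the tissue-restricted one. *Cox8a* was 899, 525, 978 and 368 FPKM and *Cox7a2* 231, 153, 239 and 117 FPKM on average at day 7 in ctrl cells, Cre cells, and those with NFIA and Δpro#3, in this order. *Cox8b* made up 1.25%, 1.41% and 1.38% of the summed *Cox8a* and *Cox8b* level in the ctrl libraries and 10.1%, 10.5% and 9.87% in those of Cre + NFIA. In Cre and Cre + NFIA Δpro#3 the share was at most 0.11%. *Cox7a1* made up 2.62 ± 0.808% (SD, n = 3) of *Cox7a1* plus *Cox7a2* in ctrl, 0.732 ± 0.247% in Cre, 5.65 ± 0.386% in Cre + NFIA and 0.93 ± 0.4% in Cre + NFIA Δpro#3. In both pairs the Cre + NFIA shares lay above all ctrl shares, and the common isoform remained the major one in all 24 libraries. Between Cre + NFIA and ctrl, *Cox8a* differed by 0.13 (SE 0.106, adjusted p = 0.446) and *Cox7a2* by 0.06 (SE 0.094, adjusted p = 0.722). Only uniquely aligned reads had been kept, so reads from stretches shared by isoform genes or their pseudogenes are missing from these levels.

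**Figure D2:**
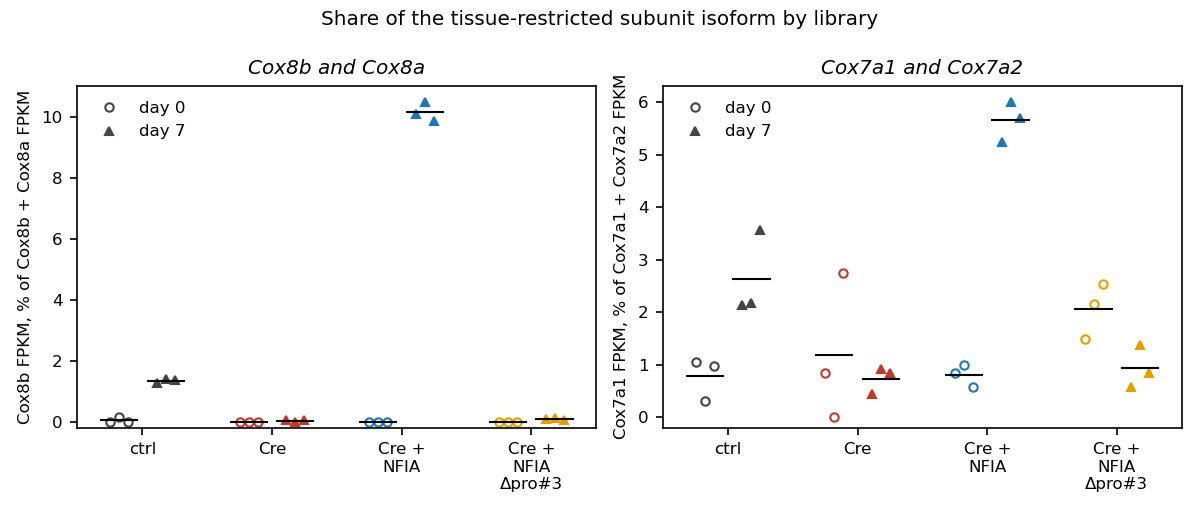
The share of *Cox8b* in the sum of *Cox8b* and *Cox8a*, and of *Cox7a1* in the sum of *Cox7a1* and *Cox7a2*, in percent of FPKM by library, at day 0 (open circles) and day 7 (filled triangles), with bars at the means. The day 7 Cre + NFIA libraries reach 9.87 to 10.5% for *Cox8b* and lie above all others in both panels.

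Among 13 other subunit genes of cytochrome c oxidase, which include *Cox8a* and *Cox7a2*, 12 passed the filter and none was called in any of the 6 day 7 comparisons. In Cre against ctrl 11 of them passed the adjusted p alone, all lower, where 2867 of all 12640 tested genes passed it lower. The median log2 difference of the 12 was -0.74, beside 0.09 over all tested genes. For Cre + NFIA against Cre 11 passed it, all higher, where 3418 of all tested genes did, with a median of 0.76 beside -0.06. For Cre + NFIA against ctrl 1 passed it, lower, where 1157 of all tested genes did, with a median of 0.01 beside 0.02. Unlike *Cox8b* and *Cox7a1*, *Cox6a2* of this list was lower in Cre + NFIA, at 2.6, 2.8 and 3.01 FPKM. In the ctrl libraries it was 3.46, 6.51 and 7.53 FPKM. The highest in ctrl, *Cox6a1* and *Cox4i1*, stood at 1100 and 940 FPKM there and at 1060 and 915 FPKM with full-length NFIA, where *Cox8a* was above *Cox4i1*.

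*Elovl3*, an elongase of very long chain fatty acids that brown fat raises in the cold, lies on the plus strand of chromosome 19 at 46206387 to 46210184 in NCBIM37, with 4 exons. *Pitx3* overlaps it on the other strand, and the authors used the counts of the matched strand. At day 7 it was 48.7, 57.2 and 63.1 FPKM in ctrl, 8.70, 10.0 and 3.81 in Cre, 29.5, 32.8 and 35.0 in Cre + NFIA, and 0.821, 1.36 and 1.80 in Cre + NFIA Δpro#3. No 2 groups overlapped, so that the order ran from ctrl over Cre + NFIA and Cre to Cre + NFIA Δpro#3. At day 0 no library held more than 2 reads of it.

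*Elovl3* fell by 2.83 in Cre against ctrl (SE 0.258, adjusted p = 3.32e-06) and rose by 2.06 in Cre + NFIA against Cre (SE 0.258, adjusted p = 2.32e-05). It did not differ past the threshold between Cre + NFIA and ctrl, where the log2 difference was -0.77 (SE 0.258, adjusted p = 0.0587). This SE pools the spread of all 4 cell types at day 7, not of these groups alone. By reads the ctrl level was 1.74-fold that of Cre + NFIA with a counting interval of 1.66 to 1.83. *Elovl3* fell by a further 1.80 in Cre + NFIA Δpro#3 against Cre (SE 0.258, adjusted p = 0.000914). By reads Cre exceeded Cre + NFIA Δpro#3 by 5.5-fold, with an interval of 4.39 to 6.96. Without Cre replicate 2 that change was -1.57 and below 3-fold.

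*Kcnk3* encodes a background potassium channel of the K2P family that is found in thermogenic adipocytes. It lies on the plus strand of chromosome 5 at 30890543 to 30927643 in NCBIM37, with 2 exons and no overlapping gene. At day 7 it was 21.9, 28.9 and 26.4 FPKM in ctrl, 10.7, 14.8 and 7.68 in Cre, 20.5, 22.6 and 21.9 in Cre + NFIA, and 0.922, 2.45 and 3.45 in Cre + NFIA Δpro#3. The ctrl and Cre + NFIA libraries overlapped, all Cre libraries lay below both, and all Cre + NFIA Δpro#3 libraries lay below Cre. No day 0 library held more than 3 reads of it.

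The *Kcnk3* differences of Cre from ctrl and from Cre + NFIA were smaller than those of the other tested members. They were -1.18 in Cre against ctrl (SE 0.27, adjusted p = 0.0026) and 0.95 in Cre + NFIA against Cre (SE 0.27, adjusted p = 0.0089), both below 3-fold. Against ctrl the difference in Cre + NFIA was -0.23 (SE 0.27, adjusted p = 0.604). *Kcnk3* fell by 1.92 in Cre + NFIA Δpro#3 against Cre (SE 0.27, adjusted p = 0.000853), or 4.7-fold by reads with an interval of 4.15 to 5.32. Without Cre + NFIA Δpro#3 replicate 1 the change was -1.58, just below 3-fold.

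*Ucp1*, which gives brown fat its heat, lies on the plus strand of chromosome 8 at 85814247 to 85822355 in NCBIM37, with 6 exons. At day 7 the ctrl libraries held 18, 9 and 36 reads, the Cre libraries 5, 2 and 0, the Cre + NFIA libraries 18, 13 and 28, and the Cre + NFIA Δpro#3 libraries 1, 0 and 0. The highest level was 1.55 FPKM, in ctrl, where 3 reads are worth 0.125 to 0.236 FPKM over the libraries. All ctrl and Cre + NFIA libraries held more reads than any library of Cre or Cre + NFIA Δpro#3. At day 0 a single read was found in 12 libraries.

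By summed reads *Ucp1* was 7.85-fold lower in Cre than in ctrl, with an exact 95% interval of 3.6 to 20.3. It was 6.7-fold higher in Cre + NFIA than in Cre, with an interval of 3.05 to 17.4. An exact two-sided permutation test of the FPKM values gave p = 0.1 for each, the smallest p that 3 against 3 libraries allow. The ctrl level was 1.17-fold that of Cre + NFIA, with an interval of 0.809 to 1.7 and p = 0.8 in the same exact test. In Δpro#3 cells against Cre, 1 read stood against 7 and the groups overlapped, with p = 0.4 in the exact test. With no filter on low values limma gave log2 differences of -0.79 in Cre against ctrl and 0.73 in Cre + NFIA against Cre, with adjusted p = 0.00534 and 0.00745, both below 3-fold on that scale.

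*Cidea*, a protein of the lipid droplet surface that marks brown fat in mice, lies on chromosome 18 with 5 exons, and the lincRNA B430212C06Rik overlaps it on the other strand. At day 7 it had 2, 1 and 5 reads in ctrl and 4, 7 and 11 in Cre + NFIA, and none in the 6 libraries of Cre and Cre + NFIA Δpro#3. Counted against 3 reads summed over the group, it was 2.33-fold lower in Cre than in ctrl and 5.83-fold higher in Cre + NFIA than in Cre. These values allow no counting error for the higher group, so that they are not strict lower limits. Between Cre + NFIA and ctrl the ratio was 2.5 with an interval of 1.07 to 6.5, but the libraries overlapped and the exact permutation test gave p = 0.2. At day 0, 2 reads were found, both in 1 Cre library.

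*Dio2*, the deiodinase that makes active T3 from T4 within brown fat, lies on the minus strand of chromosome 12 at 91962994 to 91976878 in NCBIM37. The most reads in a library was 2, with 4 in all 24 together, 3 of them in Cre + NFIA and 1 in ctrl at day 7. A limit of 3 reads is 0.032 to 0.0605 FPKM for this long transcript, and no library exceeded it, so that no fold is given. The lincRNA Gm16738 overlaps it on the other strand. The medium supplied T3 itself to every day 7 group.

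**Figure D3:**
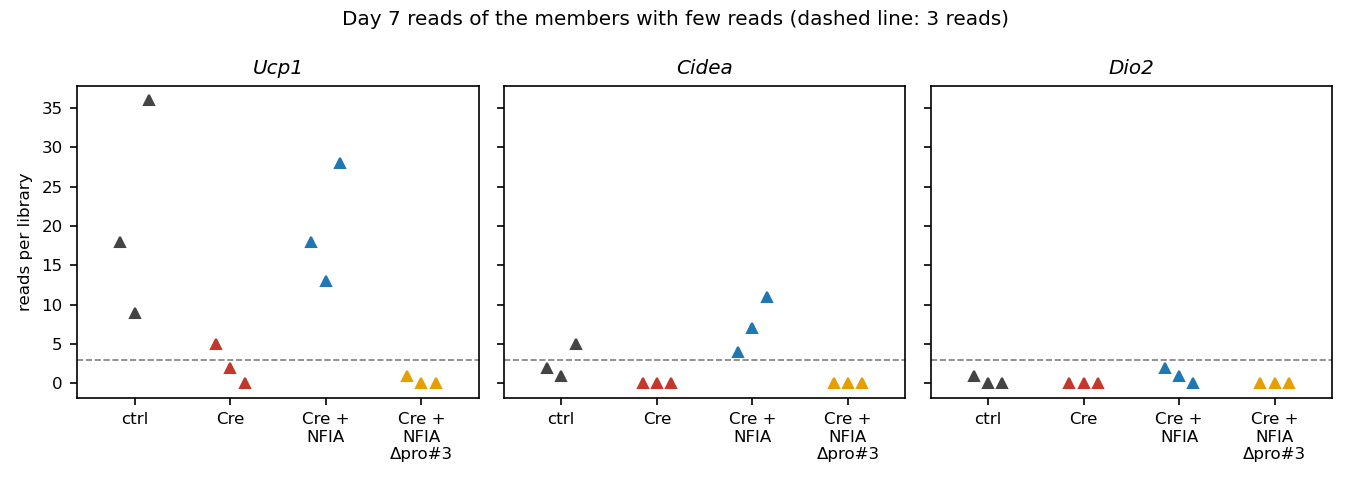
Reads of *Ucp1*, *Cidea* and *Dio2* in each day 7 library of the 4 cell types, with a dashed line at 3 reads. *Ucp1* reaches 9 to 36 reads in ctrl and 13 to 28 in Cre + NFIA, *Cidea* at most 11, and *Dio2* at most 2.

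Set side by side, the day 7 comparisons gave these counts of called members, with the share of all 12640 tested genes called in the same direction. In Cre against ctrl 3 members fell (*Cox8b*, *Cox7a1* and *Elovl3*), where 1.27% of tested genes fell. With full-length NFIA against Cre the same 3 rose, where 2.13% rose. With Δpro#3 against Cre *Elovl3* and *Kcnk3* fell, where 0.593% fell. With a pseudocount of 5 these 2 differences were -0.95 and -1.14, below 3-fold. With full-length NFIA against ctrl *Cox8b* rose, where 0.245% of tested genes, 31 in all, rose. These comparisons share libraries, Cre in 3 of them and ctrl in 2, and are not independent of each other.

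In the other comparisons of Cre + NFIA Δpro#3 all 4 tested members fell. Against Cre + NFIA, where 4.6% of tested genes fell, *Cox8b* fell by 6.42 (SE 0.129), *Elovl3* by 3.86 (SE 0.258), *Cox7a1* by 2.89 (SE 0.214) and *Kcnk3* by 2.87 (SE 0.27), with adjusted p of 1.39e-06 or less. Against ctrl, where 3.75% fell, *Elovl3* fell by 4.64 (SE 0.258), *Cox8b* by 3.35 (SE 0.129), *Kcnk3* by 3.10 (SE 0.27) and *Cox7a1* by 1.76 (SE 0.214), with adjusted p of 1.53e-05 or less. The last of these was -1.58 and below 3-fold without ctrl replicate 3.

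**Figure D4:**
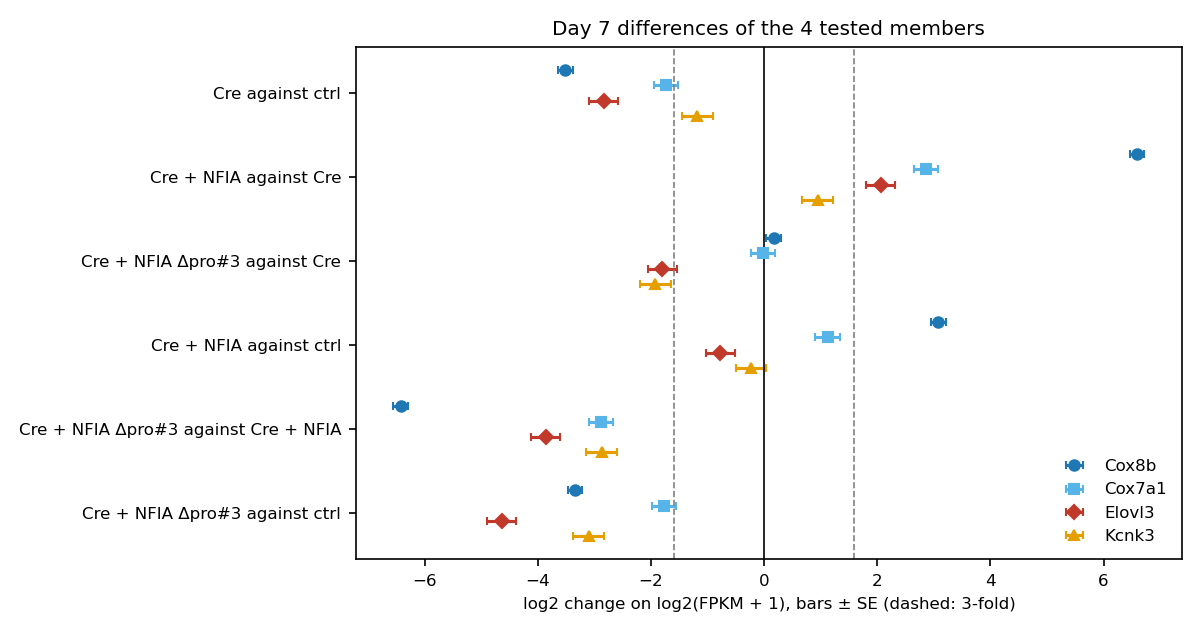
log2 differences of the 4 tested members in the 6 day 7 comparisons, on the scale log2(FPKM + 1), with bars of 1 SE and dashed lines at 3-fold. *Cox8b* and *Cox7a1* lie near 0 in Cre + NFIA Δpro#3 against Cre, where *Elovl3* and *Kcnk3* lie beyond the 3-fold line. In Cre *Cox8b* and *Cox7a1* were already too low to fall by 3-fold on this scale.

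Ratios between members within a library, formed after the member levels had been seen, restate these differences and are given as a description. The log2 ratio of *Cox8b* to *Elovl3* was 1.74 ± 0.14 (SD, n = 3) in Cre + NFIA and -2.11 ± 0.17 in ctrl. That of *Cox8b* to *Kcnk3* was 2.3 ± 0.06 and -1.01 ± 0.06. Between the same groups the ratio of *Cox8b* to *Cox7a1* differed by 1.96, that of *Cox7a1* to *Elovl3* by 1.90, that of *Cox7a1* to *Kcnk3* by 1.35 and that of *Elovl3* to *Kcnk3* by -0.54. From Cre to Cre + NFIA Δpro#3 the ratios of *Cox8b* and *Cox7a1* to *Elovl3* and *Kcnk3* differed by 1.78 to 2.09, and those of *Cox8b* to *Cox7a1* and of *Elovl3* to *Kcnk3* by 0.20 and 0.12, with overlapping libraries. Since *Cox8b* and *Cox7a1* were near the bottom of the scale in both groups, the differences of 1.78 to 2.09 mainly restate the falls of *Elovl3* and *Kcnk3*.

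From day 0 to day 7 tested members rose in 3 of the 4 cell types. In ctrl all 4 rose from day 0 to day 7, where 5.64% of tested genes rose, *Elovl3* by 5.80 (SE 0.202), *Kcnk3* by 4.73 (SE 0.211), *Cox8b* by 3.63 (SE 0.116) and *Cox7a1* by 2.10 (SE 0.326). All 4 rose in Cre + NFIA as well, where 5.78% rose, *Cox8b* by 6.80 (SE 0.116), *Elovl3* by 5.01 (SE 0.202), *Kcnk3* by 4.47 (SE 0.211) and *Cox7a1* by 3.16 (SE 0.326). In Cre, where 2.26% rose, *Elovl3* rose by 2.94 (SE 0.202) and *Kcnk3* by 3.47 (SE 0.211), while *Cox7a1* differed by 0.16 (SE 0.326, adjusted p = 0.71) and *Cox8b*, with 2 reads at day 7 and none at day 0, is given no change. No member was called in Cre + NFIA Δpro#3, where 1.46% of tested genes were called in either direction. There *Kcnk3* differed by 1.57 (SE 0.211), or 1.91 without day 7 replicate 1 and 1.585 without day 0 replicate 2, which both reached 3-fold, *Elovl3* by 1.16 (SE 0.202) and *Cox8b* by 0.38 (SE 0.116), with adjusted p = 4.29e-06, 9.53e-05 and 0.013. The *Cox8b* value rests on 1, 2 and 1 reads at day 7 and none at day 0, below the limit of 3 reads per library. Although not called, *Kcnk3* was from the reads 55.1-fold higher at day 7 in Cre + NFIA Δpro#3, with an interval of 25 to 151. *Elovl3* was 47.4-fold higher, with an interval of 12.7 to 397. The added 1 FPKM hides this on the log2 scale.

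At day 0 limma compared Cre with ctrl, and Cre + NFIA and Cre + NFIA Δpro#3 with Cre. None of the 4 tested members was called in these fits, nor did any reach an unadjusted p under 0.05. Cre + NFIA Δpro#3 was not tested against ctrl or Cre + NFIA at day 0. *Cox7a1* was then 1.53 to 3 FPKM in Cre + NFIA Δpro#3, from 30 reads. It was at most 0.969 FPKM in ctrl and 0.868 in Cre + NFIA, from 9 and 8 reads. The Cre libraries, at 0 to 2.74 FPKM, overlapped with those of Cre + NFIA Δpro#3. The share of tested genes called in either direction at day 0 was 0.0237% in Cre against ctrl, 0.538% in Cre + NFIA against Cre and 0.142% in Cre + NFIA Δpro#3 against Cre. Whether the differences between cell types differed between the days was tested as an interaction. In Cre against ctrl *Cox8b*, *Elovl3* and *Cox7a1* were called lower, where 1.27% of tested genes were. For Cre + NFIA against Cre the same 3 were called higher, where 1.7% were. For Cre + NFIA Δpro#3 against Cre *Elovl3* and *Kcnk3* were called lower, where 0.736% were. The last 2 calls were lost when reads were modelled with voom, with log2 differences of -1.85 and -1.80 and adjusted p = 0.448 and 0.497. At day 0 these genes had at most 3 reads in a library. With voom the call of *Elovl3* in the interaction for Cre + NFIA against Cre was lost too, with 2.52 and adjusted p = 0.157. Below 3-fold in the interactions were *Cox7a1* in Cre against ctrl without Cre day 0 replicate 3, at -1.45, *Elovl3* in Cre + NFIA Δpro#3 against Cre without Cre day 7 replicate 2, at -1.56, and *Kcnk3* there without Cre + NFIA Δpro#3 day 7 replicate 1, at -1.56. The *Cox7a1* call was also lost with a pseudocount of 0.1, at -2.26 with adjusted p = 0.0825.

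Relatives of each member were measured beside it. *Ucp2*, an uncoupling protein homologue without the same role in heat, was far above *Ucp1*, at 69.5 FPKM in ctrl, 14.9 in Cre, 129 in Cre + NFIA and 5.31 in Cre + NFIA Δpro#3. It fell by 2.21 in Cre against ctrl (SE 0.252, adjusted p = 1.62e-05) and rose by 3.11 in Cre + NFIA against Cre (SE 0.252, adjusted p = 6.84e-07). *Ucp3* was 0.878 FPKM in ctrl and 1.45 in Cre + NFIA, with 0.19 in Cre and 0.0224 in Cre + NFIA Δpro#3. *Cidec*, which builds the large lipid droplets of white adipocytes, was 1730 FPKM in ctrl, 585 in Cre, 1340 in Cre + NFIA and 109 in Cre + NFIA Δpro#3, against at most 0.646 FPKM of *Cidea* in any library. *Cidec* fell by 1.63 in Cre against ctrl (SE 0.336, adjusted p = 0.00128) and in Cre + NFIA Δpro#3 against Cre by 2.47 (SE 0.336, adjusted p = 0.000777). *Cideb* stayed between 0.76 and 1.63 FPKM on average in the day 7 groups.

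Among the other elongases *Elovl1* and *Elovl5* were 62.4 and 26.7 FPKM in ctrl and none of *Elovl1*, *Elovl4*, *Elovl5* and *Elovl6* was called at day 7. *Elovl4* was 3.11 FPKM in ctrl and 6.5 in Cre + NFIA, with a log2 difference of 0.87 (SE 0.127, adjusted p = 0.00075), while the means of *Elovl3* were 32.4 FPKM in Cre + NFIA and 56.3 in ctrl. *Dio3*, which inactivates thyroid hormone, was the deiodinase that these cells expressed, at 6.76 FPKM in ctrl, 10.5 in Cre, 2.97 in Cre + NFIA and 11.3 in Cre + NFIA Δpro#3. Its log2 difference was -1.53 in Cre + NFIA against Cre (SE 0.145, adjusted p = 2.39e-06), below 3-fold, and it was called higher in Cre + NFIA Δpro#3 against Cre + NFIA, at 1.63 (SE 0.145, adjusted p = 8.7e-07). *Kcnk5* was 1.41 to 2.85 FPKM on average at day 7, and *Kcnk2* was 0.49 FPKM in ctrl and 1.9 in Cre + NFIA, with a log2 difference of 0.97 (SE 0.107, adjusted p = 0.000115). *Cox7a2l*, a relative of *Cox7a1*, was 86.2 to 98.5 FPKM on average and was not called.

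Of 26 other genes of brown fat, 25 were found and 20 passed the filter. In Cre against ctrl 4 of them fell, *Adrb3*, *Plin5*, *Otop1* and *Slc36a2*, and none rose, where 1.27% of all tested genes fell. *Adrb3*, the β3-adrenergic receptor, fell by 2.65 (SE 0.248) from 54.7 to 8.27 FPKM, and *Plin5*, a lipid droplet protein of oxidative cells, fell by 2.14 (SE 0.244). Against Cre, 9 rose in Cre + NFIA and none fell, where 2.13% of all tested genes rose. The largest rises were those of the fatty acid binding protein *Fabp3* with 3.31 (SE 0.257), *Adrb3* with 2.80 (SE 0.248), *Plin5* with 2.55 (SE 0.244) and the coactivator *Ppargc1a* with 2.36 (SE 0.121). *Fabp3* alone was called in Cre + NFIA against ctrl, higher by 2.11 (SE 0.257, adjusted p = 0.000222), at 2.56 FPKM in ctrl and 13.7 in Cre + NFIA. Like *Cox8b*, *Fabp3* is a gene of heart and oxidative muscle as well. *Ppargc1a* was 1.44 FPKM in ctrl, 0.343 in Cre, 5.86 in Cre + NFIA and 0.157 in Cre + NFIA Δpro#3. With Δpro#3 against Cre 2 fell, *Slc36a2* by 2.16 (SE 0.274) and *Adrb3* by 1.62 (SE 0.248), where 0.593% of all tested genes fell. The median log2 difference over the 20 was -0.70 in Cre against ctrl, 0.99 in Cre + NFIA against Cre, -0.25 in Cre + NFIA Δpro#3 against Cre and 0.06 in Cre + NFIA against ctrl. Over all tested genes the medians were 0.09, -0.06, 0.02 and 0.02.

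General genes of adipocytes, which white and brown fat share, were read beside the members. Of 12, 8 fell in Cre against ctrl, 8 rose in Cre + NFIA against Cre, 8 fell in Cre + NFIA Δpro#3 against Cre, and none was called in Cre + NFIA against ctrl. The median log2 differences in these comparisons were -1.83, 1.73, -2.04 and -0.02. Of all tested genes 1.27% fell in Cre against ctrl, 2.13% rose in Cre + NFIA against Cre and 0.593% fell in Cre + NFIA Δpro#3 against Cre. In Cre + NFIA Δpro#3 against Cre, where all 12 passed the adjusted p lower, *Elovl3* and *Kcnk3* fell too, while *Cox8b* and *Cox7a1* were not called. The mean log2 levels of *Cox8b* and *Cox7a1* in Cre were 0.21 and 1.08. Even a complete loss from there would have been below 3-fold on this scale, so that the comparison cannot show a fall of these genes. *Fabp4*, the fatty acid binding protein of adipocytes, was 17500 FPKM in ctrl, 4960 in Cre, 14600 in Cre + NFIA and 1040 in Cre + NFIA Δpro#3, and *Pparg* was 52.0, 22.4, 60.0 and 9.02 FPKM. The summed level of the precursor markers was 460 to 551 FPKM in the ctrl and Cre + NFIA libraries at day 7, 1030 to 1160 in Cre and 1190 to 1430 in Cre + NFIA Δpro#3. *Ly6a* made up most of that sum, at 900 FPKM in Cre and 1140 in Cre + NFIA Δpro#3. Between these groups 1 of the 5 markers, *Ly6a*, passed the adjusted p higher, *Dlk1* passed it lower, at 12.6 and 5.55 FPKM, and 3 did not pass. In bulk RNA, fewer adipocytes and less RNA of a gene per adipocyte cannot be told apart.

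Set against the mean log2 level of these 12 genes in the same library, a measure chosen after the data had been seen, the members differed. For *Kcnk3* the member minus the list was -4.43 ± 0.08 in ctrl (SD, n = 3), -3.8 ± 0.1 in Cre, -4.67 ± 0.08 in Cre + NFIA and -3.81 ± 0.12 in Cre + NFIA Δpro#3, a range of values much narrower than that of *Kcnk3* itself. For *Elovl3* it was -3.33 ± 0.12 in ctrl, -4.35 ± 0.19 in Cre, -4.11 ± 0.12 in Cre + NFIA and -4.24 ± 0.37 in Cre + NFIA Δpro#3, so that the ctrl libraries stood apart from the other groups. For *Cox8b* it was -5.44 ± 0.14 in ctrl and -2.37 ± 0.07 in Cre + NFIA, although the list itself had the same mean of 9.17 in both. For *Cox7a1* it was -6.35 ± 0.3 in ctrl and -5.23 ± 0.12 in Cre + NFIA. In Cre and Cre + NFIA Δpro#3 the values of *Cox8b* and *Cox7a1* are near the bottom of the scale and move mainly with the list. In Cre + NFIA Δpro#3 *Elovl3* and *Kcnk3* were low as well, with mean log2 levels of 1.2 and 1.63. By reads their falls from Cre were 5.5-fold and 4.7-fold, which the added 1 FPKM understates. Their values relative to the list in that group, and the narrow range of *Kcnk3*, carry this limit.

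**Figure D5:**
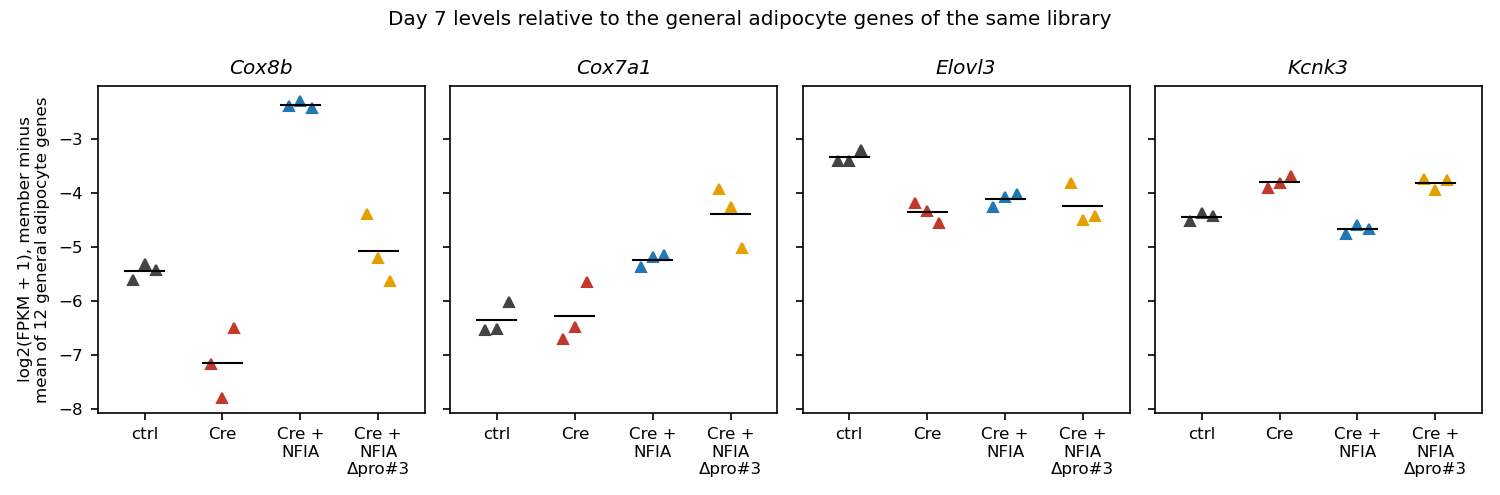
The log2(FPKM + 1) of each tested member minus the mean of 12 general adipocyte genes in the same day 7 library, by cell type, with bars at the means. *Cox8b* lies highest in Cre + NFIA, *Elovl3* highest in ctrl, and *Kcnk3* spans less than the other members.

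*Cox8b* and *Cox7a1* are also muscle genes, so markers of skeletal muscle were read beside them. Of 9, *Myod1*, *Myh4* and *Myh8* were at 0 in all 24 libraries, and *Acta1*, the actin of skeletal muscle, alone passed the filter. The summed level of the 9 was 2.54 to 4.74 FPKM in ctrl, 2.18 to 2.28 in Cre, 6.33 to 7.69 in Cre + NFIA and 2.02 to 3.32 in Cre + NFIA Δpro#3 at day 7. *Acta1* made up most of this sum, at 5.40 to 6.43 FPKM in Cre + NFIA and 2.13 to 3.82 in ctrl. On average *Mb* was higher in Cre + NFIA than in Cre, at 0.714 and 0.0241 FPKM. *Tnnt3* was lower, at 0.199 and 0.499 FPKM. *Acta1* was 5.89 FPKM in Cre + NFIA and 2.93 in ctrl, with a log2 difference of 0.83 (SE 0.176, adjusted p = 0.00747), below 3-fold. It differed by 1.38 in Cre + NFIA against Cre (SE 0.176, adjusted p = 2.66e-05), also below 3-fold, and from day 0 to day 7 it rose in Cre + NFIA by 1.96 (SE 0.172, adjusted p = 1.88e-09). Its part in the *Cox8b* and *Cox7a1* levels was not tested. Markers of blood cells and vessels summed to 4.38 to 8.28 FPKM over the day 7 libraries.

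The genes whose log2 levels were most like each member over the 24 libraries are given as a description, since all values come from the same libraries and follow the same 8 groups. For *Cox8b* they were *Chdh*, *Mfng*, *Mogat1*, *Hydin* and *Itgae*, with Pearson's r of 0.995 to 0.990. *Chdh*, the mitochondrial choline dehydrogenase, was 2.65 FPKM in ctrl, 0.127 in Cre, 13.8 in Cre + NFIA and 0.158 in Cre + NFIA Δpro#3 at day 7. For *Cox7a1* those given here were *3110002H16Rik*, *Ppm1m*, *Qrsl1* and *Aurkaip1*, with r of 0.966 to 0.932. For *Elovl3* they were *Nat8l*, *Lrrc39*, *Cyb5b*, *B430010I23Rik* and *Rasd1*, with r of 0.998 to 0.996, and *Nat8l*, which makes N-acetylaspartate in neurons and brown fat, was 26.1, 5.04, 18.5 and 0.981 FPKM in the same order of cell types as *Chdh*. For *Kcnk3* they were *Acsl1*, *Adcy5*, *Lipe*, *Tmem182* and *A530016L24Rik*, with r of 0.998 to 0.996. *Acsl1* activates fatty acids and *Lipe* is the hormone-sensitive lipase, and *Lipe* is on the list of general adipocyte genes.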

How the data were processed

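Libraries of polyA RNA were made with a stranded kit. The authors aligned reads to mm9 with STAR 2.5.3a, kept uniquely aligned reads, took the gene counts of the matched strand and deposited FPKM values, 1 file per library. The product of FPKM and kilobases added up to 1000000 per library, and each value was a whole number of reads (100%, tolerance 0.1), which gave totals of 7.73 to 14.62 M reads (M, 1000000). Groups were taken from the sample titles. Genes with at least 1 FPKM in 3 libraries were tested with limma 3.58.1 (R 4.3.3) on log2(FPKM + 1) with an intensity trend, a test that fits the deposited unit, and the recovered reads were modelled with voom as an alternative. Comparisons within a day were fitted on its 12 libraries and those over time on all 24. All groups of a fit shared 1 estimate of the spread of each gene. Unless named exact or unadjusted, p-values are adjusted over all genes of the fit, 12640 in the main fits. Fits with no filter, as for *Ucp1*, or without 1 replicate had their own set of tested genes. Ratios of summed reads carry exact conditional 95% intervals for counting error, and a group without reads was set at 3 reads (scipy). The members and lists were chosen with earlier results of these data known. Genes named beside the members were up to 4 called genes of a list with the largest change, the highest genes of a list without calls, the relatives that passed the filter (*Ucp3* also below it) and the 5 most correlated genes, of which 1 is not reported here. *Acta1*, *Pparg*, *Fabp4* and genes that explain a sentence were added after values were seen. Fits were tested on simulated data, and alternatives changed the pseudocount, filter, scaling, threshold, libraries, replicate block and model (voom).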

Additional observations from a re-analysis of the deposited data

Results flagged for a closer look

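The effect of the cell type on the members differed between day 0 and day 7 by the interaction term of limma, with adjusted p under 0.05 over all tested genes. For Cre against ctrl the effect at day 7 minus that at day 0 was -3.42 (SE 0.164) for *Cox8b*, -2.85 (SE 0.286) for *Elovl3*, -1.94 (SE 0.461) for *Cox7a1* and -1.26 (SE 0.299) for *Kcnk3* on the log2 scale. For Cre + NFIA against Cre it was 6.59 (SE 0.164) for *Cox8b*, 3.01 (SE 0.461) for *Cox7a1*, 2.07 (SE 0.286) for *Elovl3* and 0.995 (SE 0.299) for *Kcnk3*. For Cre + NFIA Δpro#3 against Cre it was -1.79 (SE 0.286) for *Elovl3* and -1.90 (SE 0.299) for *Kcnk3*. The day 0 levels of *Cox8b*, *Elovl3* and *Kcnk3* were at most 3 reads in a library, and these values were close to the day 7 differences of the same comparisons.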

How the results depend on the processing

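The number of called members in each comparison was computed again under each alternative. With a pseudocount of 5 it was 0 in place of 2 for Cre + NFIA Δpro#3 against Cre at day 7 and for its interaction with day, and 1 in place of 2 for Cre over time. With a pseudocount of 0.1, with voom and with voom with no filter, 3 in place of 0 were called for Cre + NFIA Δpro#3 over time. With voom, filtered or not, 0 in place of 2 were called in the interaction for Cre + NFIA Δpro#3 against Cre. With voom with no filter, where *Ucp1*, *Cidea* and *Dio2* also enter, 5 were called in Cre against ctrl and 5 in Cre + NFIA against Cre at day 7, and 6 in the interaction for Cre against ctrl, each in place of 3. With a 2-fold threshold and with no fold threshold, 2 in place of 1 were called in Cre + NFIA against ctrl, and 2 and 3 in place of 0 for Cre + NFIA Δpro#3 over time.

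Leaving out 1 replicate gave 2 to 3 calls for Cre against ctrl and its interaction, 1 to 2 for Cre + NFIA Δpro#3 against Cre and its interaction, 3 to 4 for Cre + NFIA Δpro#3 against ctrl, and 0 to 1 for Cre + NFIA Δpro#3 over time. The directions that turned belonged to differences that were not called. *Cox7a1* in Cre + NFIA Δpro#3 against Cre at day 7 was 0.036 with quantile scaling and -0.245 to 0.116 without 1 replicate. *Cox7a1* in Cre over time was -0.074 with quantile scaling and -0.301 to 0.65 without 1 replicate, the lowest without Cre day 0 replicate 2. At day 0 *Cox7a1* was -0.104 in Cre against ctrl with a pseudocount of 0.1 and -0.287 to 0.664 without 1 replicate, and in Cre + NFIA against Cre 0.332 with a pseudocount of 0.1, 0.056 with voom, 0.07 with voom with no filter and -0.604 to 0.346 without 1 replicate. *Kcnk3* in Cre + NFIA Δpro#3 against Cre at day 0 was -0.063 to 0.007 without 1 replicate. The causes were not tested. Where both groups held at most 3 summed reads no fold is given.

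Median-of-ratios scaling moved every day 7 log2 difference by -0.142 to 0.103, with -0.129 in Cre against ctrl, and turned no direction of a called member. Nothing in the labels says that the replicate numbers pair the libraries. Deviations of same-numbered libraries correlated at -0.306 to 0.218, with 6 of 84 pairs over 0.1 and 19 best with their own number. Such low values do not show that pairing is absent. The highest, 0.2177, 0.201 and 0.1841, were between the replicate 2 libraries of ctrl, Cre and Cre + NFIA Δpro#3 at day 7. Whether these shared a batch was not tested. The replicate block changed no count of called members.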
